A study of Mus musculus with 26 samples.

Results

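The integrin and laminin subunit genes were followed across 9 groups of mouse brown preadipocytes that differ in their insulin receptor. The genes were taken by symbol: Itga, Itgb, Lama, Lamb or Lamc followed by the number or letters of a subunit. The set was chosen with earlier results of these data known. The 36 described here, of 52962 genes, are 18 integrin α, 8 integrin β, 5 laminin α, 3 laminin β and 2 laminin γ genes. Of the 36, 24 exceeded 0.5 CPM (a gene's count relative to the total of its library) in at least 4 of the 26 libraries and were tested with 15402 genes in all: 10 integrin α, 7 integrin β, 4 laminin α, 2 laminin β and 1 laminin γ gene. Of those 24, 23 exceeded the limit in all 26 libraries. The exception was *Itgb4*, the nearest member inside the filter, which exceeded the limit in 19 libraries. *Itga11* (3 libraries, highest CPM 0.799) and *Itga9* (1 library, highest CPM 0.551) were the nearest outside. The other 10 genes did not exceed 0.5 CPM in any library: *Itga2*, *Itgad*, *Itgae*, *Itgal*, *Itgam*, *Itgax*, *Itgb6*, *Lama1*, *Lamb3* and *Lamc3*, of which *Itgax* was at 0 counts in all 26.

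All cells came from newborn mice with floxed insulin receptor (IR) and IGF1 receptor (IGF1R) alleles, were immortalised with SV40 T antigen, and lost both receptors to a Cre adenovirus that carries GFP, after which they were sorted. The resulting double knockout (DKO) cells received an empty retroviral vector or FLAG-tagged human receptors: the full-length B isoform (IR), the kinase-dead K1030R, ∆CT without the last 79 residues, or JMO, which keeps 36 juxtamembrane residues inside the cell. All lines were selected with hygromycin, starved of serum for 6 h and collected without insulin (basal) or after 100 nM insulin for 15 min; DKO cells were basal only. Each group had 3 dishes, and ∆CT with insulin had 2. Each receptor was present in 1 line, so p-values measure the spread between dishes of a line, and a receptor cannot be told apart from other differences of its line.

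Library totals ran from 17228982 to 24694828 counts, and counts of a gene varied between dishes with a biological coefficient of 4.44%. The gene-level counts of *Insr* (24.0 CPM in DKO cells, 66.2 to 76.9 in the basal receptor lines) and *Igf1r* (27.3 CPM in DKO cells, 29.7 to 34.4 in the basal receptor lines) do not resolve deleted exons or the human sequences, so they check no label. The mesenchymal markers *Pdgfra* (158 to 287 CPM) and *Pdgfrb* (522 to 642 CPM) were present in every library. Of 9 preadipocyte or mesenchymal markers, 7 were tested. By edgeR's glmTreat, beyond 1.5-fold at an adjusted p below 0.05, 1 was called higher than DKO in JMO, 2 in K1030R, 2 in ∆CT and 3 in IR cells, and 1 lower in each line. Of all genes, 1.38%, 2.04%, 2.38% and 3.6% were called higher and 0.734%, 3.25%, 3.91% and 3.29% lower, in the same order. *Ly6a* was at 45.2 CPM in DKO, 10.8 in JMO and 2.85 to 4.4 in the other basal lines, *Thy1* at 6.67 in DKO and 21.4 to 28.6 in the receptor lines, and *Cd34* at 3.48 in DKO, 4.96 in JMO and 10.7 to 14.0 in the others. Of the preadipocyte markers, *Dlk1* and *Ebf2* stayed at or below 0.402 CPM, as did the mature brown adipocyte markers *Ucp1*, *Cidea*, *Adipoq* and *Plin1*. The summed smooth muscle and pericyte markers (*Acta2*, *Myh11*, *Cspg4* and *Rgs5*) ranged in the basal dishes from 411 to 449 CPM in ∆CT, 492 to 535 in IR, 565 to 581 in DKO, 643 to 658 in JMO and 677 to 709 in K1030R cells. Their part in the differences between lines was not tested. Fewer cells of a type and less RNA per cell cannot be told apart in such bulk samples.

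Integrins are receptors made of one α and one β chain that bind proteins outside the cell and connect them to the actin cytoskeleton. The α chain largely sets the ligand: laminins, collagens, proteins with an RGD motif such as fibronectin and vitronectin, or cell surface proteins of leukocytes and vessels. Laminins are cross-shaped trimers of an α, a β and a γ chain that polymerise into the basement membrane, the sheet that surrounds each mature adipocyte. Preadipocytes lay down this matrix and change its make-up as they differentiate.

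The start sites of 4 of the 7 members called higher or lower in IR than in DKO cells are shown. Those of the other called members, *Itga2b*, *Lama5* and *Lamb1*, are not shown. RefSeq held an entry for 23 of the 36 genes and for 16 of the 24 tested. Each window runs from 250 bases before to 50 bases after the RefSeq start on GRCm38.p6, 5′ to 3′ on the gene's strand, and capitals mark CG dinucleotides. *Itga8* (chr2:12301895-12302194, minus strand), *Itga10* (chr3:96645334-96645633, plus strand) and *Lama2* (chr10:27616893-27617192, minus strand) were the higher ones, and *Itgb7* (chr15:102231886-102232185, minus strand) was lower.
Itga8: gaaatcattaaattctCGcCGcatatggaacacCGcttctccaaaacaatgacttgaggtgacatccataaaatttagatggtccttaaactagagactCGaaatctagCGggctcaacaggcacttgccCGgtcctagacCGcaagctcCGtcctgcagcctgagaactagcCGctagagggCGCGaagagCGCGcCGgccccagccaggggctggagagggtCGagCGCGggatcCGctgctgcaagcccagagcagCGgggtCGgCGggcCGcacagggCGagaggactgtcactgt
Itga10: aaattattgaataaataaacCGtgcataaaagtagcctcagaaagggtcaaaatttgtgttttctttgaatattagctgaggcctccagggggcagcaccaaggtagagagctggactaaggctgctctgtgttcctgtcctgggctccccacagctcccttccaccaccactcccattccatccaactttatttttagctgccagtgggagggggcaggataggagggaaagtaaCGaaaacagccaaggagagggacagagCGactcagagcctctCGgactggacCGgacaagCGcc
Lama2: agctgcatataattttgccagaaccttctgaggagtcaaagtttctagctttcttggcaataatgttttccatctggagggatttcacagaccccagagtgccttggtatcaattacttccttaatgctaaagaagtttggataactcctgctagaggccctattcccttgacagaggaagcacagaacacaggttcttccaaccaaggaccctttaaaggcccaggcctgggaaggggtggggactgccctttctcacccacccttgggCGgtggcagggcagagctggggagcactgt
Itgb7: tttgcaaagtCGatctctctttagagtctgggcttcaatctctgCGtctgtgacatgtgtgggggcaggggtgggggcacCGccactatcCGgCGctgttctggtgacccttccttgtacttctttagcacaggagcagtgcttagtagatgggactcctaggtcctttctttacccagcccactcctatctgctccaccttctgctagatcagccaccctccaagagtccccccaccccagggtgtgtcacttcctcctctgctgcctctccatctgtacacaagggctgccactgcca
The *Itga8* window held 23 CG dinucleotides, those of *Itga10* and *Itgb7* held 6 and 5, and that of *Lama2* held 1, beside a median of 7 over 32851 RefSeq windows. Searched on both strands, the TATA motif TATAAA was in none of the 4 windows and in 13.6% of all. The same held for the CCAAT box (37.4% of all), the E-box CACGTG (7.15%) and the AP-1 motif TGANTCA (7.81%). GGGCGG, in 35.7% of all windows, was found once, 18 bases after the RefSeq start of *Lama2*. That window lies inside the *Lama2* gene as GENCODE annotates it, downstream of the 5′ end given below, while the other 3 windows span the GENCODE 5′ ends of their genes. Among the 16 tested members with an entry, 9 held GGGCGG, 3 held the CCAAT box, 1 the AP-1 motif and none the TATA motif or the E-box.

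Levels of different genes were compared per kilobase of the longest coding transcript. *Itgb1*, the β chain that pairs with most laminin and collagen binding α chains, was highest, with 196 CPM per kb in DKO cells and 241 in K1030R cells. It was followed in DKO cells by *Itgb5* with 102, a β chain of vitronectin receptors. The laminin chains *Lamb1*, *Lamc1* and *Lamb2* came to 63.8, 55.7 and 40.7 CPM per kb. *Itgav* reached 47.8 and *Itga5*, the α chain of the main fibronectin receptor, 41.2. Per kilobase of all exons together these became 31.4 and 36.6, so the order of this pair depends on the length used. The laminin α chains were lower than *Lamb1*, *Lamb2* and *Lamc1*. *Lama4* was highest with 8.52 CPM per kb in DKO cells, followed by *Lama2* with 1.09, *Lama5* with 0.678 and *Lama3* with 0.125. Per kilobase of all exons *Lama2* came to 0.641 and *Lama5* to 0.678, and *Lamb1*, *Lamc1* and *Lamb2* to 37.2, 51.3 and 37.7, so these orders also depend on the length used. *Itga8* (0.251), *Itga4* (0.278) and *Itgb4* (0.108) were among the lowest in DKO cells.

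**Figure D1:**
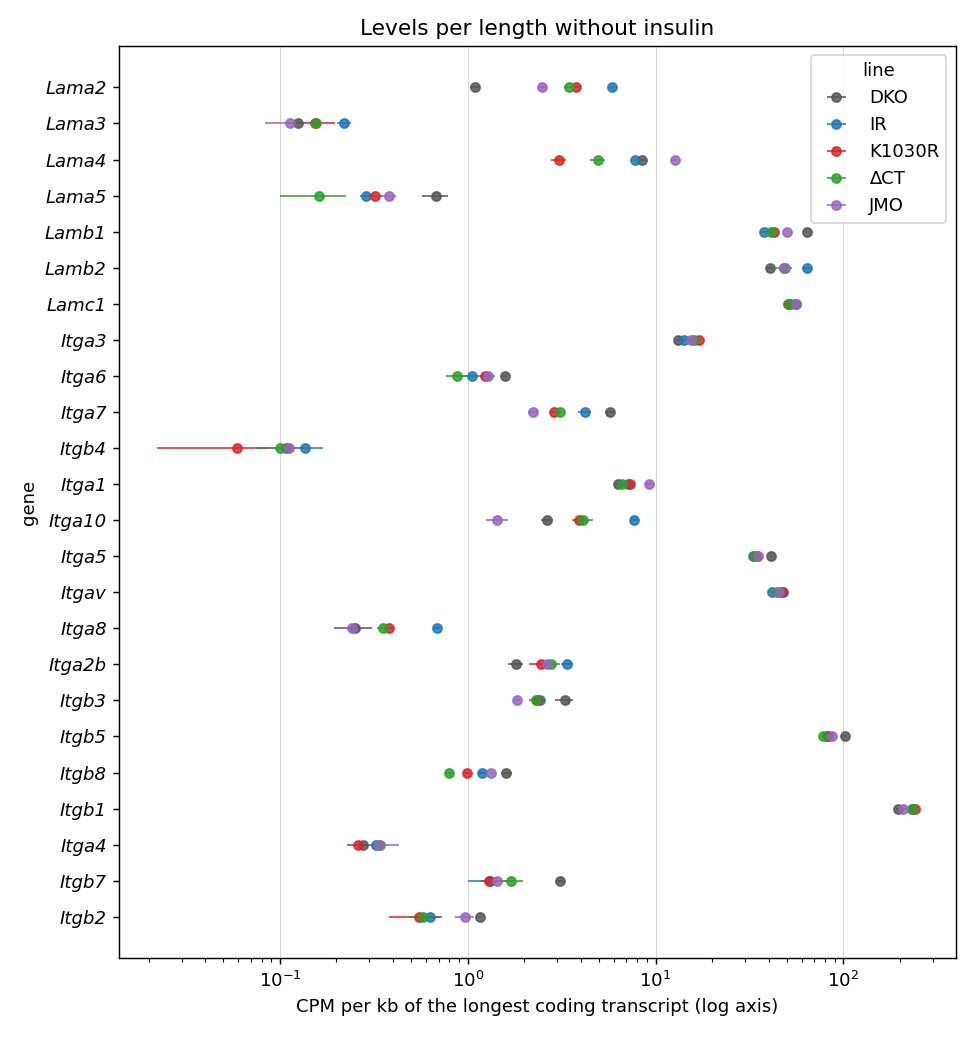
Level of each tested integrin and laminin gene without insulin, in CPM per kilobase of the longest coding transcript on a log axis. Points are means of 3 dishes and bars are SD. *Itgb1* lies at the far right with 196 in DKO cells, the points of all 5 lines lie apart for *Lama4*, and those of K1030R and ∆CT lie close to each other for *Lama2* and *Itga10*.

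The receptor lines were first compared with DKO cells, which lack the receptor, in the basal state. A gene was called when edgeR's glmTreat placed its change beyond 1.5-fold at an adjusted p below 0.05. In IR cells 4 of the 24 genes were higher (*Lama2*, *Itga10*, *Itga8* and *Itga2b*) and 3 lower (*Lama5*, *Itgb7* and *Lamb1*), while 3.6% of all genes were higher and 3.29% lower. In K1030R cells *Lama2* was higher and 4 genes were lower (*Lama4*, *Itgb7*, *Lama5* and *Itga7*), while 2.04% of all genes were higher and 3.25% lower. In ∆CT cells *Lama2* was higher and 4 genes were lower (*Lama5*, *Itgb8*, *Itga7* and *Lama4*), while 2.38% of all genes were higher and 3.91% lower. In JMO cells *Lama2* was higher and 3 genes were lower (*Itga7*, *Itgb7* and *Itgb3*), while 1.38% of all genes were higher and 0.734% lower. These comparisons share the 3 DKO libraries and are given side by side.

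The differences with no minimum fold were more numerous. The quasi-likelihood test put 22 of the 24 genes at an adjusted p below 0.05 for IR, 20 for K1030R, 20 for ∆CT and 16 for JMO cells, where 49.8%, 41.6%, 46.3% and 34.3% of all genes passed. The dishes of the line did not overlap those of DKO for 20, 20, 22 and 18 genes, against 54.9%, 50.5%, 51.5% and 47% of all genes. The median log2 fold change over the 24 genes was -0.11, -0.19, -0.12 and -0.12, and that over all genes was 0.01 in each comparison. The median size of the change, whatever its sign, was 0.45, 0.48, 0.50 and 0.28, beside 0.21, 0.18, 0.20 and 0.15 over all genes.

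JMO cells served as the second reference, since they carry the extracellular part of the receptor without the kinase and C-terminus. *Itga10*, *Itga8*, *Lama2* and *Itga7* were higher and *Lama4* lower in IR than in JMO cells, while 1.94% of all genes were higher and 2.65% lower. In K1030R cells *Itga10* was higher and *Lama4* lower than in JMO cells, while 0.851% of all genes were higher and 2.79% lower. In ∆CT cells *Itga10* was higher and *Lama4* and *Lama5* were lower, while 1.08% of all genes were higher and 3.42% lower. Among the lines with a kinase domain, *Lama4* and *Itga10* were lower in K1030R than in IR cells, with 1.04% of all genes called, and *Itga10* was lower in ∆CT than in IR cells, with 0.708%. No member was called between ∆CT and K1030R cells by glmTreat, limma or DESeq2, where 0.039% of all genes were called. Of the 24 genes, 11 had an unadjusted p below 0.05 in that comparison, and *Lama5*, *Lama4* and *Itga6* passed with no minimum fold, beside 3.43% of all genes. With no minimum fold 18, 13 and 15 members differed from JMO in IR, K1030R and ∆CT cells, where 42.4%, 35.4% and 38.8% of all genes did, and 12 members differed from IR in K1030R (30.2%) and 12 in ∆CT cells (26.1%), with *Itgb4* in the first set alone and *Lama5* in the second. Dishes did not overlap JMO for 19, 13 and 17 members (49.3%, 47.2% and 46.2% of all genes). They did not overlap IR for 15 members in K1030R (39.5%) and 13 in ∆CT cells (33.3%), and K1030R and ∆CT did not overlap for 8 (18.1%).

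**Figure D2:**
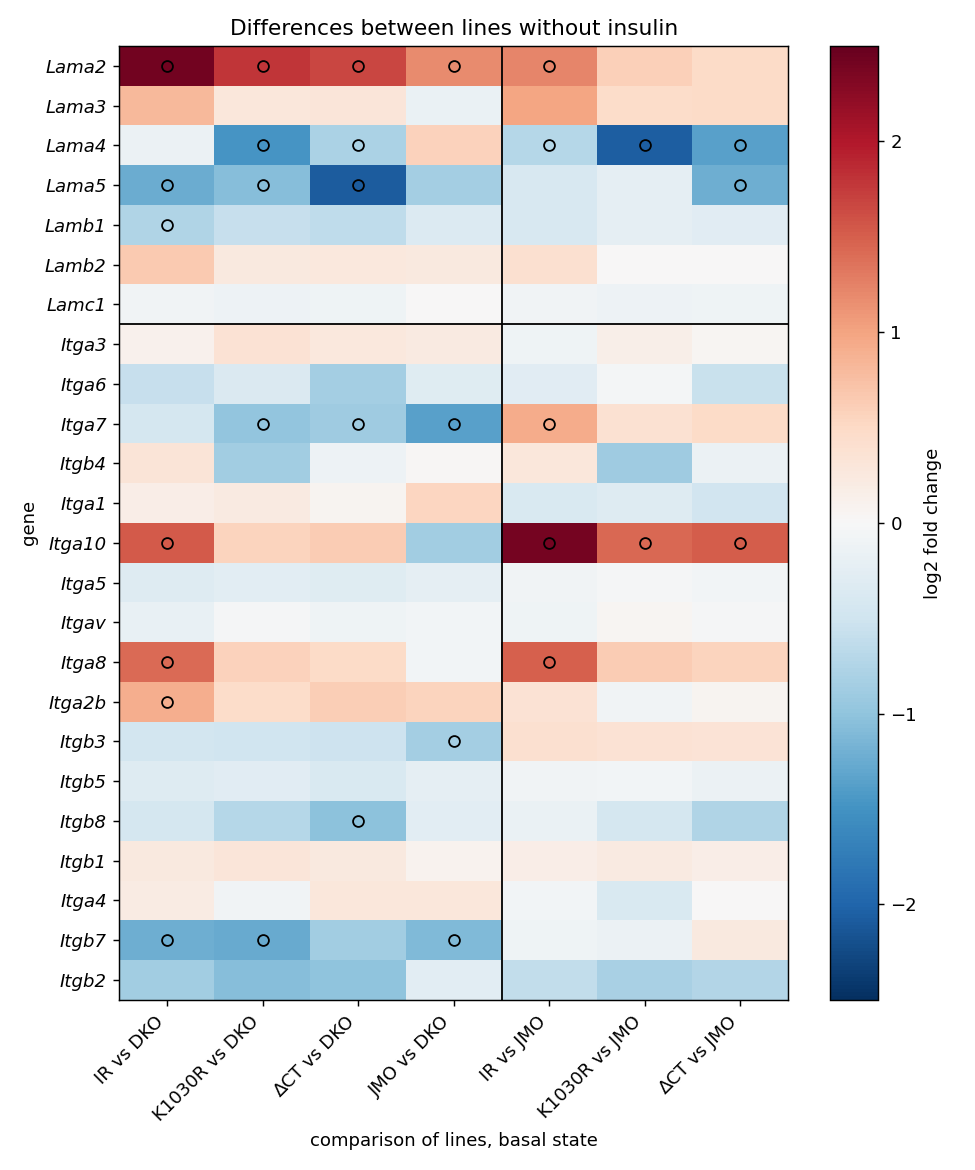
Log2 fold change of the 24 tested genes in 7 comparisons of lines without insulin, with genes as rows and comparisons as columns. Red is higher and blue lower in the line named first, and open circles mark calls past the 1.5-fold minimum. *Lama2* has circles in all 4 columns against DKO, and *Lama4* in all 3 columns against JMO.

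The laminin α chains set which receptors a laminin binds, and they did not all move in the same direction. *Lama2* (ENSMUSG00000019899, chromosome 10:26980036-27619758, minus strand of GRCm38), the α chain of the laminins of muscle and nerve, had the largest rise of the 24 genes in each receptor line over DKO. *Lama2* read 9.89, 10.6 and 11 CPM in the DKO dishes, 23.7, 25.4 and 23 in JMO, 34.8, 38.5 and 35.2 in K1030R, 32.7, 31.7 and 35.9 in ∆CT and 56, 55 and 57.8 in IR cells. DKO dishes were lowest and IR dishes highest, K1030R and ∆CT overlapped, and no other basal groups did. The log2 fold change over DKO was 2.42 ± 0.06 (SE) in IR cells, a 5.35-fold level (edgeR adjusted p = 1.63e-23). In K1030R cells it was 1.78 ± 0.07, in ∆CT 1.67 ± 0.07 and in JMO 1.19 ± 0.07, with adjusted p of 1.65e-17, 2.62e-16 and 1.00e-08. IR cells exceeded JMO cells by 1.23 ± 0.06 (adjusted p = 2.17e-12). ∆CT cells were below IR cells by a log2 difference of -0.75 ± 0.05, with an adjusted p of 0.051 against the 1.5-fold minimum and 2.00e-12 without it. The first of these was below 0.05 without ∆CT replicate 3 (0.00531), K1030R replicate 2 (0.0424), JMO replicate 2 (0.0498) or insulin-treated JMO replicate 1 (0.0425), with no filter (0.047) and with the replicate block (0.0451). After insulin *Lama2* was at 22.4 ± 1.61 in JMO, 35.8 ± 0.654 in K1030R, 31.2 ± 1.74 in ∆CT and 54.2 ± 1.97 in IR cells (SD). Of the Schwann cell markers, *Sox10*, which defines these cells, did not exceed 0.0465 CPM in any library. In the basal dishes it summed with *S100b* to 0.445 to 0.741 CPM in DKO, 0.868 to 1.01 in JMO, 1.03 to 1.56 in K1030R, 1.26 to 1.89 in ∆CT and 1.05 to 1.71 in IR cells. With insulin the sum was 0.908 to 1.28 CPM in JMO, 0.919 to 1.05 in K1030R, 1.41 to 1.57 in ∆CT and 1.06 to 2.03 in IR cells, and its part in the *Lama2* levels was not tested.

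*Lama4* (ENSMUSG00000019846, chromosome 10:38965515-39110188, plus strand), the α chain typical of vessels, fat and other mesenchymal tissue, was lowest in K1030R cells. *Lama4* read 49.4, 52.2 and 53 CPM in the DKO dishes, 76.8, 75.4 and 78.9 in JMO, 17.2, 20.3 and 17.9 in K1030R, 28, 28.7 and 33 in ∆CT and 46.4, 47.2 and 47.2 in IR cells. No basal group overlapped any other, in the order JMO, DKO, IR, ∆CT and K1030R from high to low. K1030R cells were 4.16-fold below JMO cells, a log2 difference of -2.05 ± 0.06 (edgeR adjusted p = 2.82e-21), and differed from DKO by -1.48 ± 0.06 (adjusted p = 8.92e-15) and from IR cells by -1.34 ± 0.06 (adjusted p = 3.34e-11). ∆CT cells differed from JMO by -1.37 ± 0.06 and from DKO by -0.79 ± 0.06, with adjusted p of 1.58e-14 and 0.00229. Between IR and JMO cells the difference was -0.72 ± 0.05 (adjusted p = 0.0433), and this call was lost without IR replicate 1, 2 or 3 (adjusted p = 0.132, 0.0810 and 0.0660) or JMO replicate 1 or 3 (0.0783 and 0.140). Its adjusted p was 0.483 with DESeq2, 0.123 with limma and 0.0701 by edgeR with no filter. JMO against DKO cells was not past the minimum, at 0.58 ± 0.05, but passed without it (adjusted p = 5.73e-11). With insulin *Lama4* read 72 ± 2.06 in JMO, 18.1 ± 1.56 in K1030R, 28.6 ± 1.79 in ∆CT and 46 ± 1.7 in IR cells. Of the endothelial markers, *Pecam1* ran from 6.79 to 18.2 CPM, while *Cdh5*, *Kdr* and *Tek* did not exceed 0.058, 0.348 and 0.43 CPM. The summed level of all 4 was thus mostly *Pecam1*. Without insulin it was 8.02 to 11.5 CPM in JMO, 8.14 to 15.4 in DKO and 10.5 to 13.5 in K1030R dishes. It was 9.51 to 12.2 in ∆CT and 10.3 to 11.4 in IR dishes, and these ranges overlap. With insulin it was 8.98 to 18.4 in JMO, 6.98 to 11.8 in K1030R, 8.42 to 14.3 in ∆CT and 12.4 to 15.2 in IR dishes. The part of these markers in the *Lama4* levels was not tested.

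*Lama5* (ENSMUSG00000015647, chromosome 2:180176373-180225859, minus strand), the broadly expressed α chain of mature basement membranes, was highest in DKO cells. *Lama5* read 6.52, 7.62 and 9.01 CPM in the DKO dishes, 4.23, 4.74 and 4.01 in JMO, 3.43, 4.03 and 3.57 in K1030R, 1.66, 1.25 and 2.64 in ∆CT and 3.33, 3.48 and 3.01 in IR cells. The DKO dishes lay above those of every receptor line, and the ∆CT dishes below those of every other line. JMO overlapped K1030R, and K1030R overlapped IR. The log2 fold change against DKO was -2.07 ± 0.16 in ∆CT, -1.25 ± 0.15 in IR and -1.07 ± 0.15 in K1030R cells, with edgeR adjusted p of 6.16e-10, 0.000186 and 0.00543. The K1030R call was lost without DKO replicate 3 (adjusted p = 0.0896) and with DESeq2 (0.160). In JMO cells the value was -0.84 ± 0.14 (adjusted p = 0.331 against the minimum, 1.59e-05 without it). ∆CT was below JMO by -1.23 ± 0.17 (adjusted p = 0.00206), a call lost without ∆CT replicate 2 (0.0582) and with DESeq2 (0.0739). Against K1030R cells the ∆CT difference of -1.0 ± 0.18 passed only with no minimum fold (adjusted p = 0.000584). So did the ∆CT difference of -0.83 ± 0.18 from IR cells (adjusted p = 0.00062), which passed the minimum without ∆CT replicate 3 (0.0419). Insulin-treated groups had 4.46 ± 0.278 in JMO, 2.95 ± 0.108 in K1030R, 1.88 ± 0.17 in ∆CT and 3.3 ± 0.301 in IR cells. *Lama3*, an α chain of epithelial laminins, was expressed at a low level, with 2.32 ± 0.188 in IR against 1.32 ± 0.0764 in DKO cells, a log2 difference of 0.81 ± 0.21 (adjusted p = 0.00197 with no minimum fold, 0.514 with it). Its 5 basal group means ran from 1.19 to 2.32 CPM. IR exceeded JMO cells by 0.98 ± 0.22 (adjusted p = 0.000359 with no minimum fold, 0.188 with it). The summed epithelial markers *Epcam*, *Cdh1*, *Krt8* and *Krt18* were at 0.283 to 0.399 CPM in DKO, 0 to 0.101 in JMO, 0.259 to 0.302 in K1030R, 0.292 to 0.562 in ∆CT and 0.39 to 0.589 in IR dishes without insulin. *Krt8* alone had means of 0.255 CPM in DKO, 0.0168 in JMO and 0.417 in IR cells. *Epcam*, *Cdh1* and *Krt18* did not exceed 0.0487, 0.132 and 0.0965 CPM in any library. Their part in the *Lama3* levels was not tested.

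Of the β chains, *Lamb1* fell and *Lamb2* was higher in IR cells. *Lamb1* (ENSMUSG00000002900, chromosome 12:31265234-31329644, plus strand) is the β chain of most embryonic and many adult laminins. *Lamb1* read 372, 365 and 369 CPM in the DKO dishes, 289, 291 and 293 in JMO, 251, 243 and 248 in K1030R, 240.0, 242 and 232 in ∆CT and 223, 224 and 214 in IR cells. None of the 5 basal groups overlapped, from DKO at the top through JMO, K1030R and ∆CT to IR. IR cells were 1.68-fold below DKO, a log2 difference of -0.74 ± 0.03 (edgeR adjusted p = 3.31e-05). The other lines differed from DKO by -0.58 ± 0.03 in K1030R, -0.63 ± 0.03 in ∆CT and -0.34 ± 0.03 in JMO, which passed with no minimum fold only (adjusted p = 9.02e-17, 4.76e-18 and 1.12e-10). After insulin *Lamb1* read 279 ± 12 in JMO, 248 ± 3.52 in K1030R, 224 ± 6.42 in ∆CT and 213 ± 6.35 in IR cells. *Lamb2*, the β chain of synaptic and kidney laminins, read 229 ± 7.26 CPM in DKO and 359 ± 20.7 in IR cells. Its log2 difference of 0.65 ± 0.05 passed with no minimum fold (adjusted p = 3.26e-11) and not against the 1.5-fold minimum (0.395). In K1030R, ∆CT and JMO cells *Lamb2* was at 272, 274 and 272 CPM. *Lamc1*, the γ chain of nearly all laminins, varied less. It was at 425 ± 1.45 CPM in DKO cells and between 389 and 425 CPM in the receptor lines, with no log2 difference from DKO larger than -0.13 ± 0.03.

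**Figure D3:**
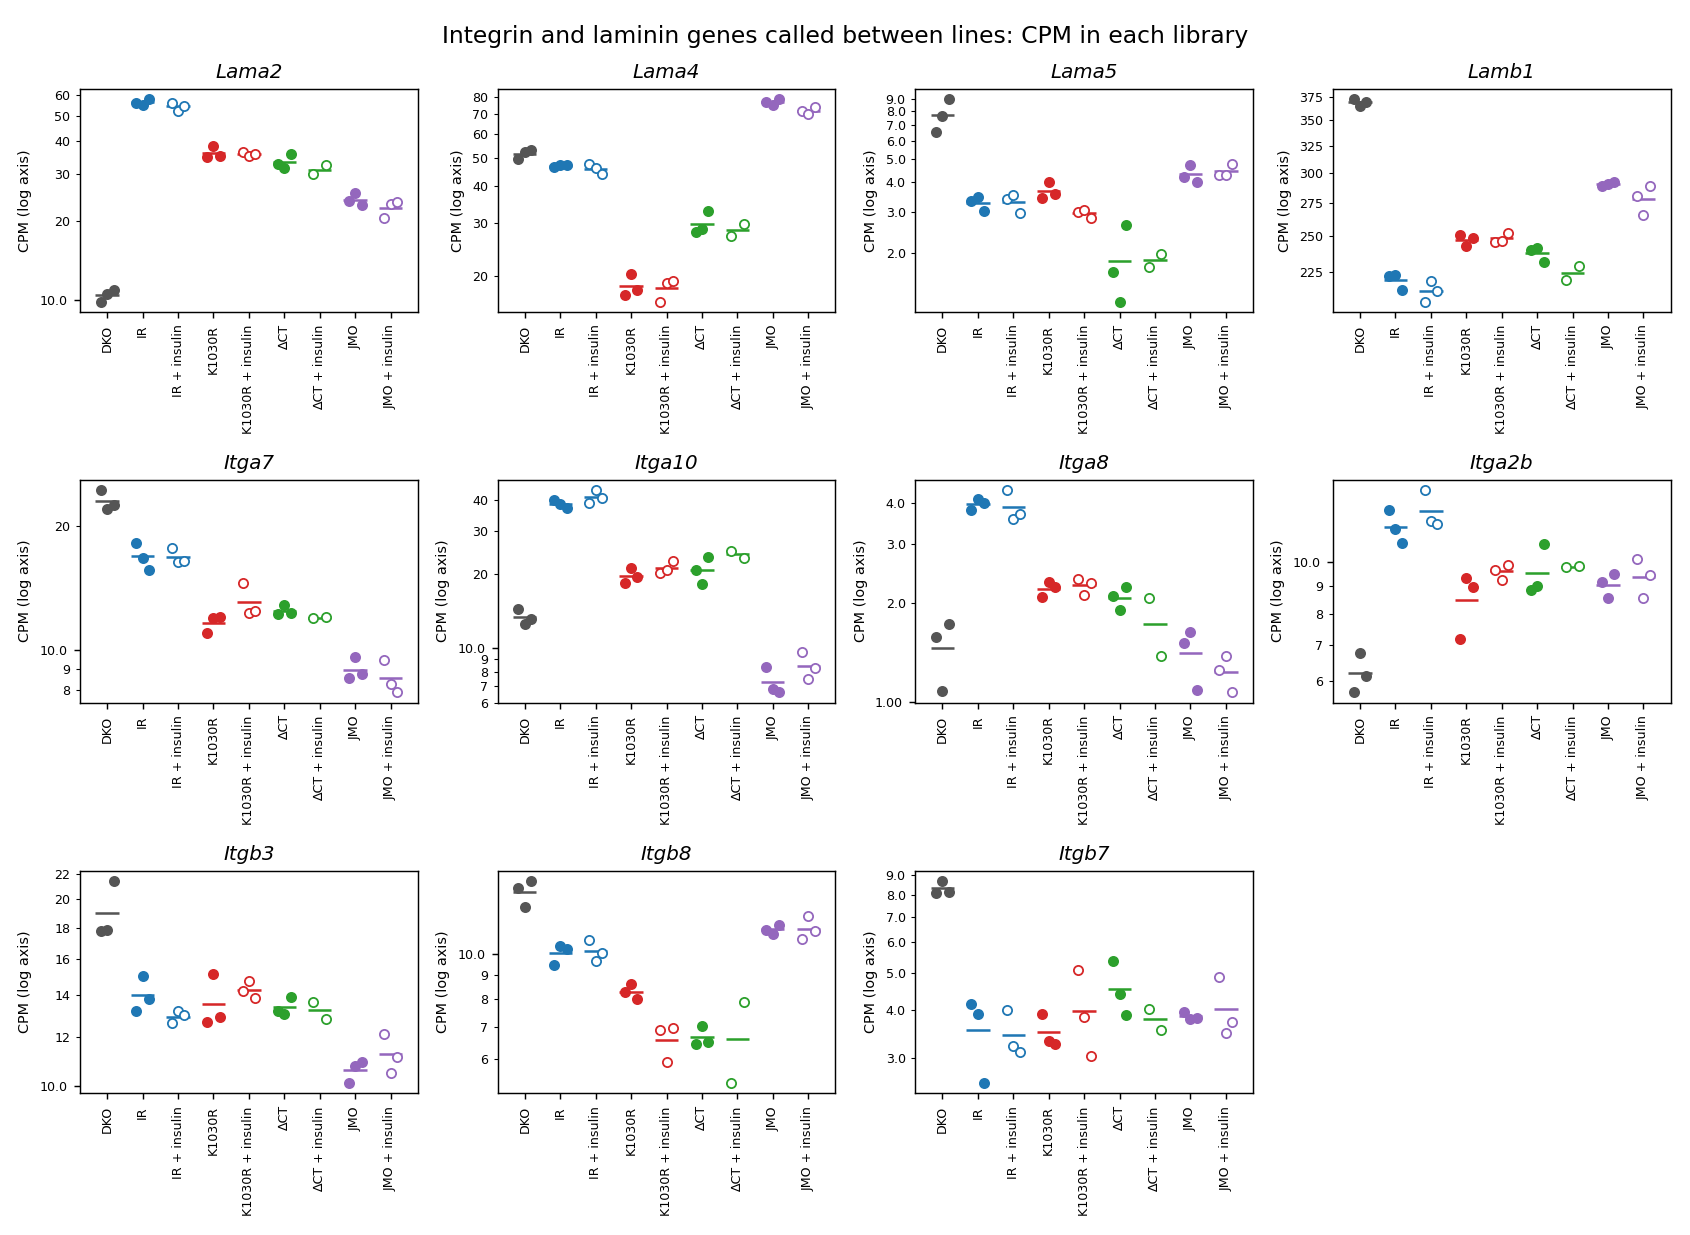
CPM of each library for the 11 genes called against DKO or JMO cells, on log axes that differ between panels. Each point is a dish, filled without and open with insulin, and lines mark group means. The DKO dishes lie below all others for *Lama2* and above all others for *Lamb1* and *Itgb7*, and filled and open points of a line lie close together.

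The make-up of the laminin chains was compared within each library as a ratio of levels per coding kilobase, for 3 pairs chosen after their values had been seen (as was the pair *Itga10* and *Itga1*, described with the collagen receptors). *Lama2* relative to *Lama4* was 0.128 ± 0.00221 in DKO and 0.196 ± 0.0145 in JMO cells. It was 0.753 ± 0.0198 in IR, 0.704 ± 0.0266 in ∆CT and 1.23 ± 0.039 in K1030R cells, the one line in which *Lama2* exceeded *Lama4*. The insulin-treated groups gave 0.196 ± 0.0144 in JMO, 1.25 ± 0.135 in K1030R, 0.687 ± 0.00473 in ∆CT and 0.742 ± 0.0342 in IR cells. *Lamb2* relative to *Lamb1* went from 0.638 ± 0.0224 in DKO to 1.67 ± 0.0576 in IR cells, with 0.96 ± 0.0113, 1.13 ± 0.0665 and 1.19 ± 0.139 in JMO, K1030R and ∆CT cells. Per kilobase of all exons it was 1.01 ± 0.0355 in DKO and 2.66 ± 0.0914 in IR cells, so which β chain was more abundant in DKO and JMO cells depends on the length used. *Lama5* relative to *Lama4* was 0.0793 ± 0.0102 in DKO, 0.0299 ± 0.00325 in JMO, 0.106 ± 0.000414 in K1030R, 0.0323 ± 0.00969 in ∆CT and 0.037 ± 0.00274 in IR cells, so K1030R was the one receptor line with a mean above that of DKO. These ratios are descriptions and were not tested.

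**Figure D4:**
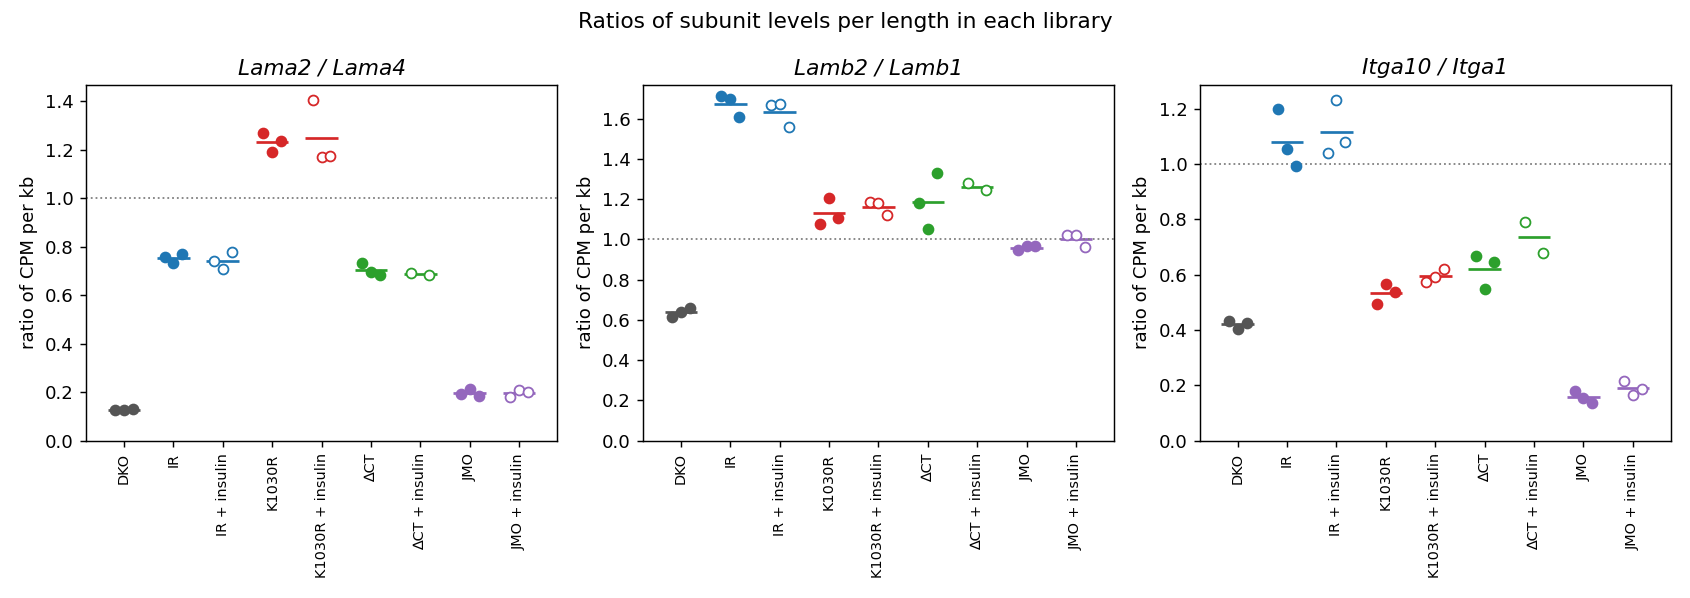
Ratio of CPM per coding kilobase between pairs of subunits in each library, filled without and open with insulin, with lines at group means and a dotted line at equal levels. *Lama2* exceeds *Lama4* in K1030R dishes alone, and the ratio of *Itga10* to *Itga1* is between 0.992 and 1.23 in IR dishes and at most 0.791 in the others.

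Among the laminin receptors, the α chain *Itga7* was the one called against DKO. *Itga7* (ENSMUSG00000025348, chromosome 10:128933818-128958282, plus strand), best known from muscle, pairs with *Itgb1*. *Itga7* read 24.5, 22 and 22.5 CPM in the DKO dishes, 8.54, 9.59 and 8.72 in JMO, 11, 11.9 and 12 in K1030R, 12.2, 12.8 and 12.3 in ∆CT and 18.2, 16.7 and 15.7 in IR cells. No basal group overlapped another, from DKO through IR, ∆CT and K1030R down to JMO. The log2 fold change against DKO was -1.36 ± 0.08 in JMO, -0.98 ± 0.08 in K1030R and -0.89 ± 0.08 in ∆CT cells, with edgeR adjusted p of 6.49e-10, 3.91e-05 and 0.000758. IR cells were closer to DKO, with -0.44 ± 0.07 (adjusted p = 1.0 against the minimum, 4.53e-06 without it), and exceeded JMO cells by 0.92 ± 0.08 (adjusted p = 0.000752). With insulin *Itga7* was at 8.53 ± 0.825 in JMO, 13.1 ± 1.25 in K1030R, 12 ± 0.0628 in ∆CT and 16.8 ± 0.777 in IR cells. The skeletal muscle markers *Myod1* (0 counts in all 26 libraries) and *Myog* (at most 0.0524 CPM) were absent or nearly so, and *Acta1* ran from 0.146 to 0.805 CPM. *Des* was at 3.54 ± 0.398 CPM in DKO, 4.11 ± 0.671 in JMO, 2.22 ± 0.628 in K1030R, 2.74 ± 0.13 in ∆CT and 2.54 ± 0.0467 in IR cells without insulin. The part of these markers in the *Itga7* levels was not tested.

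*Itga3*, a receptor chain for laminins that hold *Lama3* or *Lama5*, was at 64.4 ± 1.77 CPM in DKO cells and at 69.2 to 83 CPM in the receptor lines. Its log2 difference from DKO was 0.37 ± 0.04 in K1030R cells (edgeR adjusted p = 8.03e-09 with no minimum fold). *Itga6*, the α chain of a general laminin receptor and of the hemidesmosome, had basal group means of 3.78 to 6.8 CPM, with 6.8 ± 0.191 in DKO and 3.78 ± 0.47 in ∆CT cells. The difference of -0.85 ± 0.12 passed with no minimum fold (edgeR adjusted p = 3.34e-07). Against the minimum the adjusted p was 0.0672, which fell to 0.0193 without ∆CT replicate 1 and to 0.0485 without IR replicate 2. With insulin *Itga6* was at 5.08 ± 0.269 in JMO, 5.11 ± 0.341 in K1030R, 4.90 ± 0.155 in ∆CT and 4.34 ± 0.306 in IR cells. *Itgb4*, its hemidesmosome partner, ranged from 0.178 to 0.988 CPM in the basal libraries and had no adjusted p against DKO below 0.102. It was lower in K1030R (0.367 ± 0.229) than in IR cells (0.842 ± 0.213) with no minimum fold, a log2 difference of -1.17 ± 0.40 (adjusted p = 0.0253, or 1.0 against the minimum), and the dishes overlapped. Their common partner *Itgb1* was at 748 ± 22.3 CPM in DKO and 919 ± 28.3 in K1030R cells, a log2 difference of 0.30 ± 0.04 that passed with no minimum fold only (adjusted p = 1.76e-08), and its basal group means ran from 748 to 919 CPM.

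Of the 4 collagen receptor α chains, 2 were expressed and they separated IR from JMO cells in opposite directions. *Itga10* (ENSMUSG00000090210, chromosome 3:96645584-96664519, plus strand), known from cartilage and mesenchymal progenitors, had the largest difference of the 24 genes between IR and JMO cells. *Itga10* read 14.5, 12.5 and 13.2 CPM in the DKO dishes, 8.38, 6.84 and 6.59 in JMO, 18.4, 21.1 and 19.5 in K1030R, 20.7, 18.2 and 23.5 in ∆CT and 40, 38.5 and 37.2 in IR cells. IR dishes were highest and JMO dishes lowest, and K1030R and ∆CT dishes overlapped only each other. IR cells held 5.27-fold the JMO level, a log2 difference of 2.40 ± 0.09 (edgeR adjusted p = 7.83e-18), and differed from DKO by 1.53 ± 0.08 (adjusted p = 6.00e-12). K1030R and ∆CT cells exceeded JMO by 1.43 ± 0.10 and 1.5 ± 0.10, with adjusted p of 9.82e-09 and 8.54e-10. Both were below IR cells, K1030R with -0.97 ± 0.08 on the log2 scale (adjusted p = 0.000717) and ∆CT with -0.89 ± 0.08 (adjusted p = 0.00891). The ∆CT call was lost without IR replicate 1 (0.0637), ∆CT replicate 1 (0.0582) or ∆CT replicate 2 (0.208), and with DESeq2 (0.172). JMO was below DKO by -0.87 ± 0.10, with an adjusted p of 0.0537 against the minimum and 4.86e-08 without it. The first of these was 0.0104 without JMO replicate 1, and it was also below 0.05 without DKO replicate 2 (0.049), ∆CT replicate 2 (0.0336) or 3 (0.0311), or insulin-treated JMO replicate 1 (0.0436) or 2 (0.0395). The same held with RLE scaling (0.0457), no filter (0.0106), the filter at 10 counts (0.0475) and a model of the 2 groups (0.0438).

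With insulin *Itga10* was at 8.47 ± 1.1 in JMO, 21.3 ± 1.25 in K1030R, 24.1 ± 1.21 in ∆CT and 41.4 ± 2.53 in IR cells. It shares 1739 exon bases on the same strand with *Gm42957*, which read 0.712 CPM in DKO, 1.01 in JMO, 0.969 in K1030R, 1.89 in ∆CT and 2.17 in IR cells, so reads could have been divided between both. *Itga1*, the other expressed collagen receptor chain, was at 69.2 ± 3.1 CPM in DKO, 100.9 ± 3.54 in JMO, 80.3 ± 1.06 in K1030R, 73 ± 5.78 in ∆CT and 77.9 ± 4.69 in IR cells. It was higher in JMO than in DKO cells by a log2 difference of 0.55 ± 0.05 with no minimum fold (edgeR adjusted p = 1.75e-11) and lower in IR than in JMO cells by -0.38 ± 0.05 (adjusted p = 2.15e-08), and neither passed the 1.5-fold minimum. Per coding kilobase *Itga10* relative to *Itga1* was 0.157 ± 0.021 in JMO, 0.42 ± 0.0149 in DKO, 0.533 ± 0.0362 in K1030R, 0.62 ± 0.0632 in ∆CT and 1.08 ± 0.106 in IR cells. Per kilobase of all exons the IR and ∆CT values became 1.78 ± 0.175 and 1.02 ± 0.104. The remaining collagen receptor chains *Itga2* and *Itga11* did not exceed 0.31 and 0.799 CPM.

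Of the receptors for RGD proteins, *Itga8* (ENSMUSG00000026768, chromosome 2:12106632-12301922, minus strand), which pairs with *Itgb1* and binds nephronectin and fibronectin, was higher in IR cells. *Itga8* read 1.58, 1.08 and 1.72 CPM in the DKO dishes, 1.5, 1.63 and 1.09 in JMO, 2.07, 2.32 and 2.23 in K1030R, 2.09, 1.9 and 2.23 in ∆CT and 3.8, 4.13 and 4.0 in IR cells. The IR dishes lay above all others, the JMO and DKO dishes overlapped, and K1030R and ∆CT dishes overlapped each other between them. IR cells exceeded DKO by 1.42 ± 0.18 and JMO by 1.49 ± 0.18, 2.68- and 2.8-fold levels (edgeR adjusted p = 9.30e-05 and 4.96e-05). K1030R and ∆CT cells differed from DKO by 0.58 ± 0.19 and 0.48 ± 0.19, which passed with no minimum fold (adjusted p = 0.0158 and 0.0398). Both were below IR cells with no minimum fold, by -0.84 ± 0.17 and -0.94 ± 0.17 (adjusted p = 0.000196 and 6.23e-05). The gene rests on 1201 counts over 26 libraries. After insulin it was at 1.23 ± 0.156 in JMO, 2.25 ± 0.135 in K1030R, 1.72 ± 0.489 in ∆CT and 3.89 ± 0.433 in IR cells. Of the markers of smooth muscle, which expresses *Itga8*, *Acta2* was at 392 ± 19.2 CPM in basal IR, 471 ± 10.4 in DKO and 565 ± 7.31 in JMO cells. *Cspg4* was at 116 ± 2.55, 99.9 ± 3.57 and 82.1 ± 2.54 CPM in the same order, and *Myh11* did not exceed 0.631 CPM. *Rgs5*, at 5.34 ± 0.514, 1.52 ± 0.195 and 3.93 ± 0.614 CPM, was called higher in IR than in DKO cells (1.84 ± 0.16, edgeR adjusted p = 1.39e-08). In K1030R and ∆CT cells *Rgs5* was at 3.62 ± 0.406 and 4.44 ± 0.106 CPM. Of the smooth muscle and pericyte markers, 3 were tested. Against DKO, 1 was called higher and none lower in each receptor line. Of all genes, 3.6%, 2.04%, 2.38% and 1.38% were called higher in IR, K1030R, ∆CT and JMO cells. In basal ∆CT cells 1 of the 3 markers was called lower than in JMO and 1 lower than in K1030R cells. Their part in the *Itga8* levels was not tested.

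*Itga2b* (ENSMUSG00000034664, chromosome 11:102453297-102470122, minus strand), the α chain of the platelet fibrinogen receptor, was also higher in IR cells. *Itga2b* read 5.71, 6.76 and 6.13 CPM in the DKO dishes, 9.15, 8.57 and 9.47 in JMO, 7.16, 9.31 and 8.95 in K1030R, 8.87, 8.99 and 10.8 in ∆CT and 12.5, 11.5 and 10.8 in IR cells. The DKO dishes lay below and the IR dishes above those of the other lines, among which K1030R, ∆CT and JMO overlapped. Only IR cells passed the 1.5-fold minimum against DKO, with 0.91 ± 0.10 (edgeR adjusted p = 0.00586), and with DESeq2 the adjusted p was 0.249. The other lines passed with no minimum fold, with 0.62 ± 0.10 in ∆CT, 0.55 ± 0.10 in JMO and 0.46 ± 0.11 in K1030R cells (adjusted p = 6.61e-06, 7.70e-05 and 0.000636). Its level with insulin was 9.38 ± 0.769 in JMO, 9.59 ± 0.305 in K1030R, 9.78 ± 0.0286 in ∆CT and 12.4 ± 1.03 in IR cells. Its partner *Itgb3* (ENSMUSG00000020689, chromosome 11:104608000-104670476, plus strand), which also pairs with *Itgav*, moved the other way. *Itgb3* read 17.8, 17.8 and 21.4 CPM in the DKO dishes, 10.1, 10.8 and 10.9 in JMO, 12.7, 15.2 and 12.9 in K1030R, 13.2, 13 and 13.9 in ∆CT and 13.2, 15 and 13.8 in IR cells. DKO dishes were highest and JMO dishes lowest, with IR, K1030R and ∆CT overlapping between them. JMO cells were 1.81-fold below DKO, a log2 difference of -0.86 ± 0.08 (adjusted p = 0.0125). That call was lost without DKO replicate 3 (0.281), which reads highest, or JMO replicate 1 (0.0965), with DESeq2 (0.417) and with limma (0.0554). IR, K1030R and ∆CT cells differed from DKO by -0.45 ± 0.08, -0.49 ± 0.08 and -0.52 ± 0.08, past the test with no minimum fold only. Insulin-treated groups read 11.2 ± 0.824 in JMO, 14.3 ± 0.461 in K1030R, 13.2 ± 0.578 in ∆CT and 12.9 ± 0.288 in IR cells.

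*Itgb8* (ENSMUSG00000025321, chromosome 12:119158022-119238802, minus strand), the partner of *Itgav* that releases active TGFβ from its latent complex, was lowest in ∆CT cells. *Itgb8* read 13.8, 12.6 and 14.3 CPM in the DKO dishes, 11.2, 11 and 11.5 in JMO, 8.29, 8.61 and 8.02 in K1030R, 6.45, 7.04 and 6.52 in ∆CT and 9.48, 10.4 and 10.2 in IR cells. No basal group overlapped another, from DKO through JMO, IR and K1030R down to ∆CT. ∆CT cells were 2.03-fold below DKO, with -1.02 ± 0.10 (edgeR adjusted p = 0.00019). The K1030R value of -0.71 ± 0.10 did not pass the minimum (adjusted p = 0.462) and passed without it (2.24e-07), as did IR with -0.44 ± 0.09 and JMO with -0.27 ± 0.09. With insulin the levels were 11.3 ± 0.633 in JMO, 6.58 ± 0.603 in K1030R, 6.61 ± 1.82 in ∆CT and 10.1 ± 0.531 in IR cells. The abundant chains varied little. *Itgav*, shared by *Itgb3*, *Itgb5* and *Itgb8*, ran from 295 CPM in IR to 337 in DKO cells, and *Itga5* from 144 in IR to 181 in DKO cells. *Itgb5* ran from 256 CPM in ∆CT to 335 in DKO cells. The largest log2 differences from DKO were -0.19 for *Itgav* in IR, -0.32 for *Itga5* in IR and -0.38 for *Itgb5* in ∆CT cells, and all passed with no minimum fold only (edgeR adjusted p = 6.92e-06, 1.16e-10 and 4.90e-11).

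Subunits best known from leukocytes were low or absent. *Itgb7* (ENSMUSG00000001281, chromosome 15:102215995-102231944, minus strand), a β chain of gut-homing lymphocytes, was highest in DKO cells. *Itgb7* read 8.1, 8.7 and 8.13 CPM in the DKO dishes, 3.94, 3.78 and 3.82 in JMO, 3.91, 3.32 and 3.26 in K1030R, 5.36, 4.39 and 3.88 in ∆CT and 4.14, 3.91 and 2.57 in IR cells. No receptor line reached the DKO dishes, and the receptor lines overlapped each other. The log2 fold change against DKO was -1.25 ± 0.16 in K1030R, -1.22 ± 0.16 in IR and -1.11 ± 0.16 in JMO cells, with edgeR adjusted p of 0.000621, 0.000632 and 0.0131. The JMO call was lost without DKO replicate 2 (0.0542) and with DESeq2 (0.314). In ∆CT cells the value of -0.86 ± 0.15 had an adjusted p of 0.151 against the minimum, or 0.0468 without ∆CT replicate 1, and 1.83e-05 with no minimum fold. After insulin *Itgb7* was at 4.02 ± 0.747 in JMO, 3.98 ± 1.04 in K1030R, 3.79 ± 0.34 in ∆CT and 3.44 ± 0.482 in IR cells. *Itgb2*, the β chain common to leukocyte adhesion receptors, was at 3.44 ± 0.0343 CPM in DKO and 1.63 ± 0.494 in K1030R cells, a log2 difference of -1.07 ± 0.23 (adjusted p = 0.0907 against the minimum, 0.000233 without it). The first of these was 0.0170 without K1030R replicate 2 and 0.0486 without insulin-treated K1030R replicate 3. In IR, ∆CT and JMO cells *Itgb2* was at 1.86 ± 0.311, 1.71 ± 0.283 and 2.88 ± 0.326 CPM. Its α partners *Itgal*, *Itgam*, *Itgax* and *Itgad* did not pass the filter.

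*Itga4*, which pairs with *Itgb1* or *Itgb7*, was at 2.72 ± 0.148 CPM in DKO cells, had basal group means of 2.55 to 3.33 CPM and had no adjusted p below 0.194 against DKO in the receptor lines. Of the 4 leukocyte markers, *Adgre1* was at 0 in all 26 libraries, *Cd3e* and *Ptprc* did not exceed 0.0511 and 0.397 CPM, and *Cd68* ran from 1.51 to 3.65 CPM. Their summed level was 3.01 to 3.64 CPM in DKO dishes and between 2.02 and 2.51 CPM in the basal dishes of the receptor lines, below every DKO dish. With insulin the sum was 2.82 to 3.37 CPM in JMO, 1.66 to 2.22 in K1030R, 3.09 to 3.53 in ∆CT and 2.91 to 3.92 in IR dishes, while group means of *Itgb7* were 3.44 to 4.02 CPM. Its part in the *Itgb7* and *Itgb2* values was not tested.

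Differences between the receptor lines were measured again in the insulin-treated dishes. Against JMO, IR cells had 4 members called (*Lama2*, *Itga7*, *Itga8* and *Itga10*, all higher), K1030R cells 2 and ∆CT cells 3, where 4.67%, 3.9% and 4.27% of all genes were called. *Lama4* in IR against JMO cells was at -0.65 ± 0.05 and no longer past the minimum (edgeR adjusted p = 0.556). *Lama4* and *Itga10* were again lower in K1030R than in IR cells, by -1.34 ± 0.06 and -0.96 ± 0.08 (adjusted p = 4.51e-12 and 0.000398), with 1.25% of all genes called. Between ∆CT and IR cells *Lama2* was called, at -0.79 ± 0.06 (adjusted p = 0.0295), and *Itga10* was not, at -0.78 ± 0.09 (0.344), with 0.656% of all genes called. Between ∆CT and K1030R cells no member was called by glmTreat, where 0.188% of all genes were. Of the 24 members, 11 had an unadjusted p below 0.05 and 4 passed with no minimum fold, 1 higher and 3 lower in ∆CT. The dishes of ∆CT and K1030R cells did not overlap for 17 members. ∆CT had 2 dishes here, and fewer dishes separate more easily, so this count cannot be set beside the basal one. Shares of all genes are not given for these counts, so they do not show whether the members differ from other genes.

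Insulin for 15 min changed none of the 24 genes detectably in any line. No member passed edgeR's test in IR, K1030R, ∆CT or JMO cells, with the 1.5-fold minimum or without it, nor with DESeq2 or limma. The 1.5-fold minimum was passed by 0.221%, 0%, 0.214% and 0.039% of all genes. With no minimum fold 1.87%, 0.156%, 1.01% and 0.364% of all genes passed. At an unadjusted p below 0.05 there were 2, 1, 6 and 1 members, and the smallest adjusted p were 0.0722, 0.369, 0.267 and 0.385. No share of all genes was counted at an unadjusted p below 0.05 in any comparison. The basal and insulin-treated dishes did not overlap for 2, 4, 8 and 3 members, against 16.2%, 12.5%, 23.4% and 13.7% of all genes. The smallest adjusted p, in IR cells, was that of *Itgb5*, at a log2 change of -0.12 ± 0.04, from 269 ± 13.6 to 247 ± 11.8 CPM. In IR cells the 95% interval of the insulin change was -0.16 to 0.05 for *Lama2*, -0.14 to 0.08 for *Lama4*, -0.05 to 0.25 for *Itga10* and -0.35 to 0.29 for *Itga8*, on the log2 scale. These intervals lie within the 1.5-fold limit, and those of low genes were wider, as for *Itgb4* in K1030R cells with -0.19 to 1.56. The insulin effect of no member differed between any pair of lines in 6 tests of the difference (smallest adjusted p = 0.550), where 0, 1 or 2 members had an unadjusted p below 0.05. Of all genes, 0.37% passed for IR against K1030R, 0.00649% for IR against ∆CT, 0.279% for IR against JMO, 0.416% for K1030R against ∆CT, 0.026% for K1030R against JMO and 0.26% for ∆CT against JMO.

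**Figure D5:**
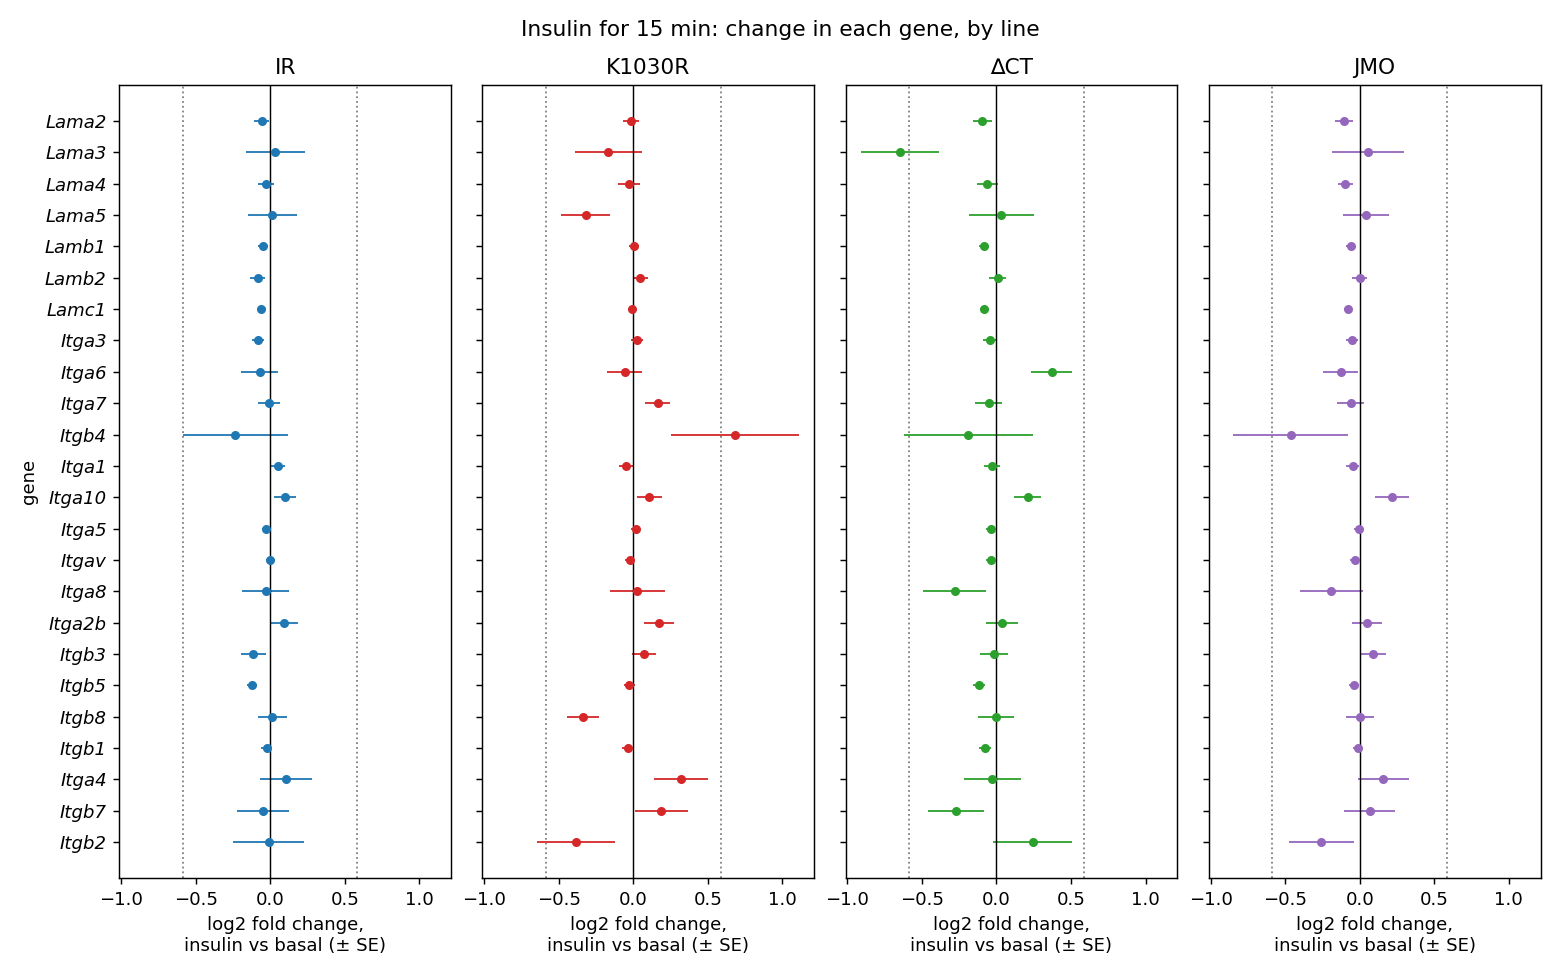
Log2 fold change of each tested gene after 15 min of 100 nM insulin, in 4 lines, with bars of ± SE and dotted lines at 1.5-fold up and down. Points of the abundant genes lie near 0, and the widest bars belong to *Itgb4*, *Lama3* and *Itgb2*, which have few counts.

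Other genes of the same adhesion machinery were counted from lists. Of 12 basement membrane partners, all tested, 2 were higher and 3 lower than in DKO in each of IR, K1030R and ∆CT cells, and none was called in JMO cells. Over all genes, 3.6%, 2.04%, 2.38% and 1.38% were higher than DKO in IR, K1030R, ∆CT and JMO cells and 3.29%, 3.25%, 3.91% and 0.734% lower. Their median log2 difference was 0.21, 0.24, 0.18 and 0.06 in IR, K1030R, ∆CT and JMO cells, beside 0.01 over all genes. *Nid2*, which links laminin to collagen IV, was at 265 ± 3.69 CPM in IR and 63.2 ± 0.63 in DKO cells, a log2 difference of 2.07 ± 0.05 (edgeR adjusted p = 7.94e-20), with 1.4 ± 0.05 in ∆CT and 1.22 ± 0.05 in K1030R cells. *Agrn*, a proteoglycan that binds laminin, fell by log2 differences of -1.71 ± 0.06 in K1030R, -1.60 ± 0.06 in ∆CT and -1.15 ± 0.06 in IR cells, from 187 ± 12.8 CPM in DKO. The collagen IV chains parted: *Col4a1* and *Col4a2* were lower (in IR cells by -1.17 ± 0.04 and -0.92 ± 0.04) and *Col4a5* was higher (0.77 ± 0.03).

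Of 17 integrin ligands other than laminins and collagens, 13 were tested, with 4 higher and 2 lower than DKO in IR, 3 and 1 in K1030R, 4 and 2 in ∆CT, and 1 and 1 in JMO cells, beside the shares of all genes just given. The median log2 difference was 0.12, -0.09, -0.13 and 0.05 in these lines. *Postn*, periostin, was at 346 ± 22 CPM in IR and 51 ± 3.25 in DKO cells, a log2 difference of 2.76 ± 0.14 (edgeR adjusted p = 1.44e-10). *Edil3*, an RGD ligand of *Itgav* receptors, was higher by 1.81 ± 0.07 in IR cells. *Spp1*, osteopontin, was lower in every receptor line, from 525 ± 10.7 CPM in DKO to 109.9 ± 5.01 in IR and 268 ± 11.9 in JMO cells, with -2.26 ± 0.05 in IR and -0.97 ± 0.05 in JMO. Of 24 proteins of integrin activation and focal adhesions, such as talin and kindlin, 23 were tested and none was called against DKO in any line. With no minimum fold 15, 10, 15 and 14 of the 23 passed in IR, K1030R, ∆CT and JMO cells by edgeR, where 49.8%, 41.6%, 46.3% and 34.3% of all genes did. The medians were -0.09, -0.04, -0.05 and -0.15. Of 10 laminin and collagen receptors that are not integrins, 9 were tested, with *Sdc2* higher in IR (0.88 ± 0.04, adjusted p = 2.33e-08) and *Sdc1* lower in ∆CT cells (-0.77 ± 0.06, adjusted p = 0.00732). The medians were 0.21, 0.16, 0.11 and -0.06 in IR, K1030R, ∆CT and JMO cells. No list was tested as a set.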

How the data were processed

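Polyadenylated RNA of 26 libraries was captured with oligo-dT for strand-specific libraries, read from one end over 100 bases. The authors trimmed the reads with fastp, assigned them with kallisto to Ensembl 98 mouse transcripts (GRCm38) and summed them to genes with tximport. The deposited values are these expected counts, unscaled, and not all of them are whole numbers. Reads that fit several genes are divided by estimation, so overlapping or near-identical genes are less certain, and values below 0.5 CPM rest on under 8.61 to 12.3 counts.

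Groups were taken from the labels, and no library was left out. Values were rounded to whole counts, a gene was tested if 4 or more libraries exceeded 0.5 CPM, and libraries were scaled with TMM in edgeR 4.0.16 (R 4.3.3; factors 0.966 to 1.05). One robust quasi-likelihood model held the 26 libraries, with a mean for each group. Calls are from glmTreat against a 1.5-fold minimum at a Benjamini-Hochberg adjusted p below 0.05 over 15402 genes. Adjusted p with no minimum fold are from glmQLFTest, and differences of insulin effects are contrasts of the same model. The 10 pairs of lines were compared without insulin and 6 of them with it. CPM are TMM-scaled and given as mean ± SD over dishes, while the filter and the marker levels used unscaled CPM. SE were taken as the log2 fold change over the root of the F statistic, and 95% intervals from the t distribution with edgeR's degrees of freedom.

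Every tested member described here is named, and 1 further gene that the rule takes is not reported here. Those called against DKO or JMO are given for each basal library, and the rest by group means or their range. The members and lists were chosen with earlier results of these data known. Symbols and coordinates came from GENCODE M21 on GRCm38 for 51916 of 52962 identifiers. Dishes differed by more than counting error (chi-square per degree of freedom 2.81 to 22.2 over 25 pairs). Alternatives were RLE scaling, no filter, at least 10 counts in at least 4 libraries, DESeq2 1.42.0, limma 3.58.1, other minimum folds and thresholds, models of 2 groups, insulin-treated libraries, a replicate block, and each library left out. The fit was tested on simulated data. Proteomic data were not analysed here.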

Additional observations from a re-analysis of the deposited data

How the results depend on the processing

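Over the 34 calls of single members, 1237 checks under other settings or without 1 library gave 1183 that kept the call, 54 that kept the direction and lost it, and 0 that reversed. Many of these checks left out a library of neither group compared, and no minimum fold is looser than the call itself. The total is therefore no measure of how firm a call is. Lost most often were *Lama4* between IR and JMO cells (11 of 37 checks) and *Itga10* between ∆CT and IR cells (8 of 37). The numbers of members called were, with each library left out in turn, 7 to 7 for IR against DKO (7 with all libraries), 4 to 6 for K1030R (5), 5 to 7 for ∆CT (5) and 3 to 5 for JMO (4); against JMO 4 to 5 for IR (5), 2 to 2 for K1030R (2) and 2 to 3 for ∆CT (3); against IR 2 to 2 for K1030R (2) and 0 to 3 for ∆CT (1), the last without ∆CT replicate 3; and 0 for ∆CT against K1030R, for insulin in each line and for each difference of insulin effects. Where 1 dish of ∆CT with insulin was left, it was taken to vary like the other groups. With no minimum fold the 10 basal counts, in the same order, were 22, 20, 20, 16, 18, 13, 15, 12, 12 and 3. A 2-fold minimum gave 2, 2, 2 and 1 against DKO, 2 for IR against JMO, 1 for K1030R against IR and 0 for ∆CT against IR. A threshold of 0.001 gave 2 for JMO against DKO and 0 for ∆CT against IR. DESeq2 gave 2 for JMO against DKO and 0 for ∆CT against IR. For ∆CT against IR no filter gave 2 and a model of the 2 groups 0. The causes were not tested. Replicate numbers did not pair the dishes: residuals of the same number had a median correlation of 0.00851 over 100 pairs (-0.17 to 0.118), and 10 of 26 libraries were closest to their own number. The replicate block gave 2 members for ∆CT against IR, adding *Lama2*, and called *Itgb2* in K1030R (adjusted p = 0.0431) and *Itgb7* in ∆CT against DKO (0.0458). Members near the filter, such as *Itgb4*, are limited by depth.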
